A study of Mus musculus with 36 samples.

Results

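The complement system is described here through 8 of its genes, the components and regulators C1ra, C1s, C2, C4b, C3, Cfb, Cfp and Serping1, among 16502 genes tested in mouse fat. They were chosen by name: every probe on the array, controls aside, whose gene name is one of these 8 or an older synonym was taken. That gave 11 probes, with 2 each for C1s, C2 and C3. The tissue was epididymal white fat, the depot beside the epididymis, from 36 adult male C57BL/6J mice, an inbred strain, with 12 mice in each of 3 groups. For 3 weeks all mice ate, without limit, a purified high-fat diet in which fat gave 30% of the energy. The t=0 mice were killed then, the HF-AL mice went on eating without limit for 12 weeks, and the HF-DR mice were restricted for 12 weeks to a ration given as 70 energy percent. The restricted ration carried extra vitamins and minerals, so HF-DR differs from HF-AL in the composition of the diet as well as its amount. Each animal's RNA, labelled with the red dye Cy5, went on 1 Agilent array together with a Cy3-labelled (green) pool made from all the animals.

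Complement is a cascade of blood and tissue proteins that marks particles and cells for uptake and can punch holes in membranes. In the classical pathway the protease C1r activates C1s, and C1s cleaves C4 and C2, whose fragments join into an enzyme that cleaves C3. In the alternative pathway C3 fragments and factor B form a second C3-cleaving enzyme, which properdin stabilises, and C1 inhibitor blocks C1r and C1s. The liver makes most of the circulating proteins, and fat tissue is known for its own synthesis, above all of factor D, also called adipsin.

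A value is the log2 ratio of the signal of 1 animal to that of the pool, and groups are compared by their mean ratios. They were tested with limma in a fit over all 16502 genes, two-sided, with Benjamini-Hochberg adjustment, and called changed at an adjusted p under 0.05. All 8 genes passed the filter on dim probes. Each of the 11 probes was well above background in Cy5 on all 36 arrays and saturated in Cy5 on none. Saturation in Cy3 was not examined. Of the 11, the C3 probe used was the brightest (mean log2 intensity 16.8) and the second C3 probe the dimmest (8.93). Whether brightness limits the ratios of the C3 probe used was not tested. In whole tissue, fewer cells of a type and less RNA per cell cannot be told apart. Arrays had 44.6% to 86.3% of their probes well above background, and the number of arrays limits the precision. Each array is 1 mouse, so the spread within a group is that between mice and their arrays.

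Arrays HF-DR 8 and 9 stood apart from the rest. The mean log2 ratio of 4 seminal vesicle transcripts was 5.87 and 5.38 on them, -0.04 on HF-DR 7, -2.85 on t=0 6 and at most -4.12 on the other arrays. The mean of 9 adipocyte markers was -1.22 and -1.11 on these arrays, against -0.26 to -0.01 on the other HF-DR arrays. These 2 arrays were also the lowest of the HF-DR group in each of the 8 complement genes, except that Cfp has no value on HF-DR 9. Results on the 8 genes are therefore given with and without them, an alternative chosen after the values were seen. Arrays of HF-AL were affected too. The sperm gene Prm1 reached 3.71 in HF-AL (median -1.54), but at most -0.58 in t=0 and -0.83 in HF-DR. The mean of the adipocyte markers was -0.08 on HF-AL 7 and -0.10 on HF-AL 9, against 0.12 to 0.44 on the other HF-AL arrays. Another alternative left out 7 arrays listed for male tract transcripts: t=0 6, HF-AL 5, 7 and 9, and HF-DR 7, 8 and 9. In the seminal vesicle transcripts HF-AL 5, 7 and 9 were low, with means of -5.59, -5.41 and -6.01. Which HF-AL arrays held the high Prm1 values is not given here.

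In restricted mice 7 of the 8 genes fell against mice fed without limit, and C3 did not pass the test. Of all genes tested, 35.9% were called lower in HF-DR than in HF-AL and 28.8% were called higher, so single calls are common in this comparison. In the 7 genes every HF-DR array also lay below every HF-AL array, which held for 8.19% of all genes. The median difference of the 8 genes was -1.01, where the median over all genes was -0.04. The plot of values by animal shows the gap in these 7 genes and the overlap in C3.

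**Figure D1:**
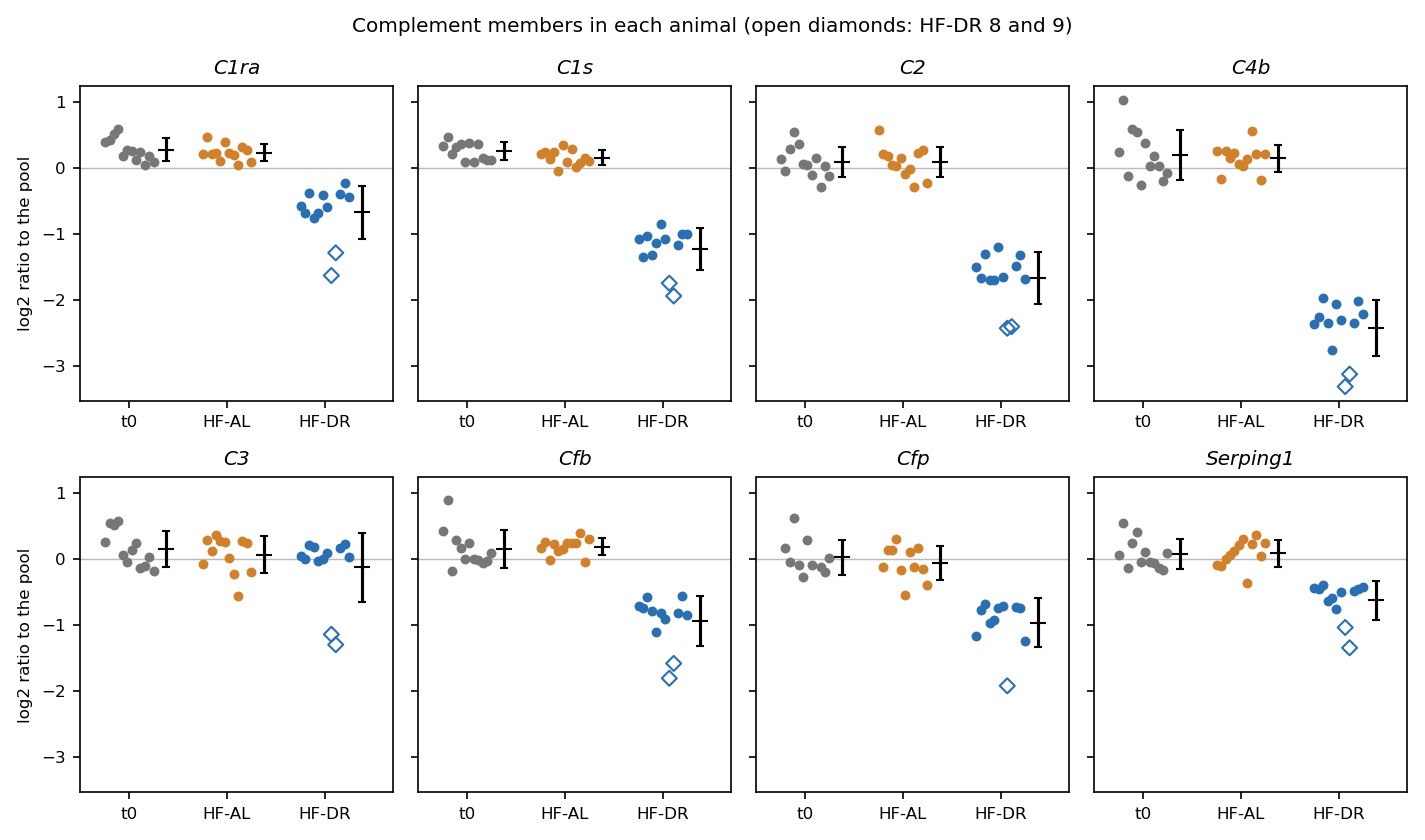
Log2 ratio of each animal to the pool (vertical axis) for the 8 complement genes in the 3 groups. Points are animals, black bars are the group mean and SD, and open diamonds are HF-DR 8 and 9. In all panels but that of C3 the HF-DR animals lie below both other groups.

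The proteases of the first component both fell. C1ra, the mouse gene for C1r, ranged from 0.04 to 0.59 in t=0 (median 0.24), from 0.03 to 0.47 in HF-AL (median 0.21) and from -1.63 to -0.23 in HF-DR (median -0.58). C1s, listed as C1s1 in current annotation, ranged from 0.08 to 0.47 in t=0 (median 0.26), from -0.06 to 0.35 in HF-AL (median 0.15) and from -1.94 to -0.86 in HF-DR (median -1.12). For both genes the HF-DR range was separate from the other ranges, while those of t=0 and HF-AL overlapped. The HF-DR minus HF-AL difference was -0.90 ± 0.10 (SE, n = 12 and 12) for C1ra, a 1.87-fold lower level, with an adjusted p of 1.89e-09 by limma. It was -1.38 ± 0.09 for C1s, 2.60-fold lower, with an adjusted p of 2.57e-16 by limma. With HF-DR 8 and 9 left out the differences were -0.75 ± 0.07 for C1ra and -1.26 ± 0.06 for C1s, and both were still called. The probes of these genes are neighbours on mouse chromosome 6 (build mm8), C1ra at chr6:124488653-124488712 and C1s at chr6:124496429-124496488, and the files list them in opposite directions. The second C1s probe, at chr6:124497068-124497127, fell by 1.00 (SE 0.09).

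C2 and C4b, the substrates of C1s, fell the most among the 8. C4b, the mouse gene for C4, ranged from -0.27 to 1.02 in t=0 (median 0.10), from -0.19 to 0.55 in HF-AL (median 0.17) and from -3.31 to -1.97 in HF-DR (median -2.33). The lowest animal of the other groups lay more than 1 log2 unit above the highest HF-DR animal. The difference was -2.56 ± 0.14, a 5.91-fold lower level, with an adjusted p of 5.25e-18 by limma. Only 13 of the 16502 genes had a lower difference. The C4b probe, at chr17:34337472-34337531, is also annotated with the transcript of the near-identical gene C4a, so the value may hold both, and the C4a probe itself gave -0.39 ± 0.07. C2, whose fragment is the protease of the classical C3-cleaving enzyme, ranged from -0.29 to 0.54 in t=0 (median 0.05), from -0.29 to 0.57 in HF-AL (median 0.09) and from -2.43 to -1.20 in HF-DR (median -1.66). Its groups were separate too, and 69 genes had a lower difference. The difference was -1.76 ± 0.12, 3.38-fold lower, with an adjusted p of 1.51e-15 by limma, and the second C2 probe gave -1.39 ± 0.11. Leaving out HF-DR 8 and 9 gave differences of -2.41 ± 0.12 for C4b and -1.61 ± 0.09 for C2.

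The alternative pathway genes Cfb and Cfp fell less. Cfb encodes factor B, the protease of the alternative C3-cleaving enzyme, and ranged from -0.18 to 0.89 in t=0 (median 0.05), from -0.05 to 0.39 in HF-AL (median 0.23) and from -1.80 to -0.55 in HF-DR (median -0.82). Its probe, at chr17:34464613-34464969, lies close to those of C2 at chr17:34470686-34470745 and chr17:34471237-34471412. The difference was -1.13 ± 0.11, 2.18-fold lower, with an adjusted p of 7.17e-11 by limma. Cfp encodes properdin, on the X chromosome (chrX:20082575-20082634), and lacks a value on 4 arrays (t=0 1 and 9, HF-AL 1 and HF-DR 9) where its spot was marked by the scanner software. It ranged from -0.27 to 0.62 in t=0 (median -0.07, n = 10), from -0.55 to 0.30 in HF-AL (median -0.12, n = 11) and from -1.92 to -0.68 in HF-DR (median -0.77, n = 11). For both genes HF-DR stood apart from the other groups. The Cfp difference was -0.90 ± 0.12, 1.87-fold lower, with an adjusted p of 1.41e-07 by limma. Over the other 10 HF-DR arrays the differences were -0.98 ± 0.09 for Cfb and -0.81 ± 0.10 for Cfp.

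Serping1, the gene of C1 inhibitor, fell the least of the 7. It ranged from -0.17 to 0.55 in t=0 (median 0.01), from -0.36 to 0.36 in HF-AL (median 0.09) and from -1.34 to -0.39 in HF-DR (median -0.49). The gap between the lowest HF-AL and the highest HF-DR animal was small, but the groups did not overlap. The difference was -0.71 ± 0.10, 1.64-fold lower, with an adjusted p of 6.04e-08 by limma, and 1077 genes had a lower difference. Leaving out HF-DR 8 and 9 gave -0.60 ± 0.08. The probe spans chr2:84566650-84568156.

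C3, which all pathways cleave, behaved differently on its probes. On the probe chosen by the rule of highest signal, at chr17:56889328-56889387, it ranged from -0.18 to 0.58 in t=0 (median 0.10), from -0.56 to 0.36 in HF-AL (median 0.18) and from -1.29 to 0.23 in HF-DR (median 0.04). The low end of HF-DR was HF-DR 8 at -1.14 and HF-DR 9 at -1.29, while the other 10 animals lay between -0.02 and 0.23, within the range of both other groups. The HF-DR minus HF-AL difference was -0.19 ± 0.15, with a 95% interval of -0.49 to 0.11 and an adjusted p of 0.264 by limma, so it was not called. Without HF-DR 8 and 9 it was 0.03 ± 0.10, with an adjusted p of 0.794. The interval over all arrays does not reach the size of the difference of any of the other 7 genes. The second C3 probe, at chr17:56910450-56910607 and 21.2 kb away, had the opposite sign. In a fit over all 24706 probes that passed the filter it gave 0.35 ± 0.15, with an adjusted p of 0.0442 by limma, and 0.53 ± 0.13 with an adjusted p of 5.19e-04 without HF-DR 8 and 9. No direction can be given for C3 from these probes.

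**Figure D2:**
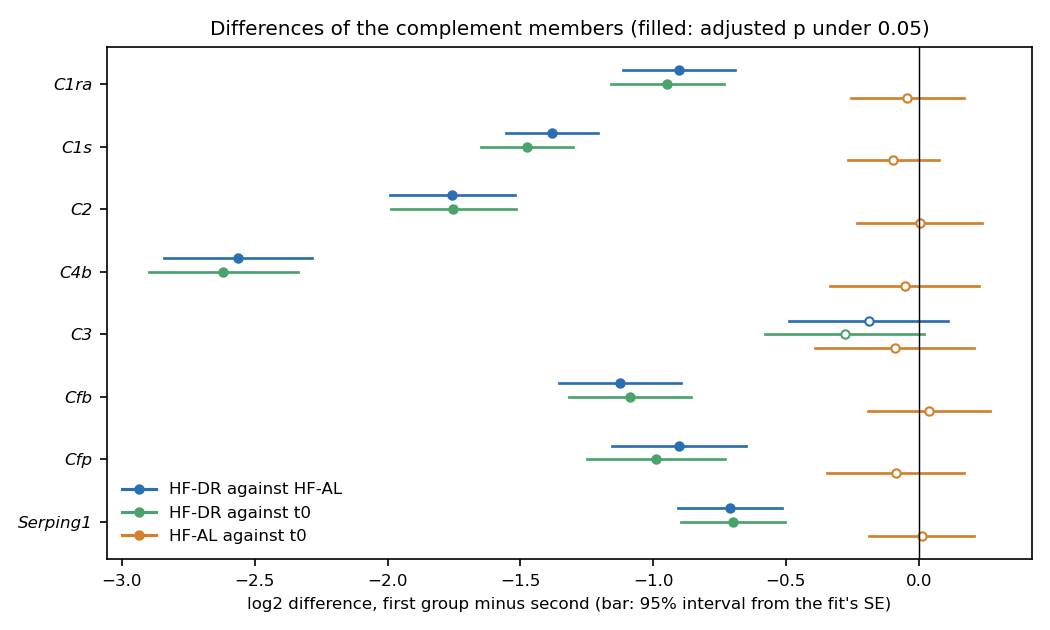
Log2 difference (horizontal axis) of each complement gene in the 3 comparisons, with bars for the 95% interval. Filled points were called at an adjusted p under 0.05. The intervals of the C3 probe used cross 0 in all 3 comparisons, and those of HF-AL against t=0 cross 0 for all 8 genes. The second C3 probe is not drawn.

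In order of the fall between HF-DR and HF-AL the 7 called genes ran C4b, C2, C1s, Cfb, C1ra, Cfp and Serping1. The 95% intervals of C4b (-2.84 to -2.28) and C2 (-1.99 to -1.52) did not overlap. Those of C1s (-1.55 to -1.21), Cfb (-1.36 to -0.90), C1ra (-1.12 to -0.69), Cfp (-1.15 to -0.65) and Serping1 (-0.91 to -0.51) each overlapped the interval of their neighbour in this order. Differences between genes were not tested. The plot of all differences places the chosen probe of C3 in the bulk, and for C4b, C2, C1s, Cfb and C1ra at most 3.47% of genes had a lower difference.

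**Figure D3:**
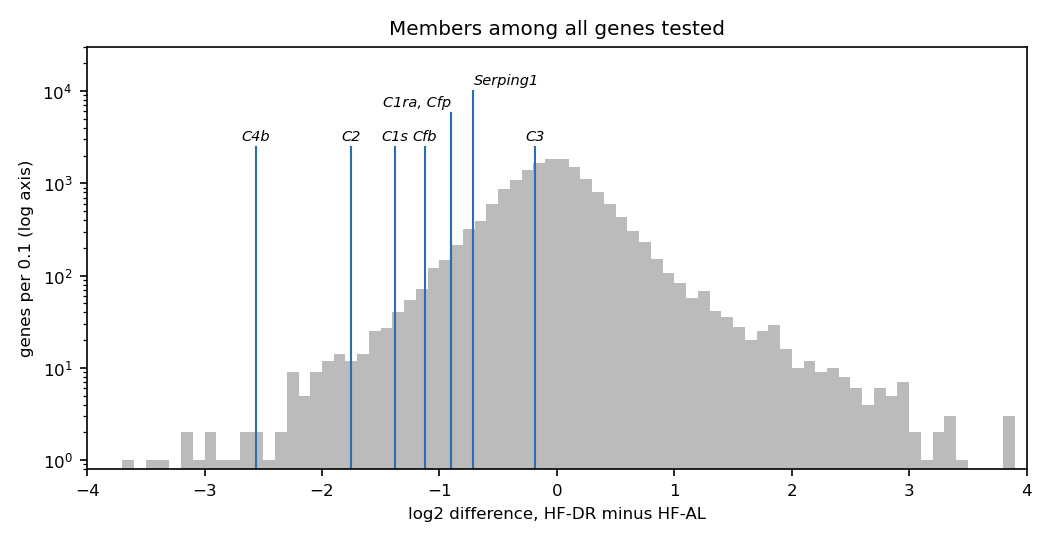
Number of genes (vertical, log axis) by log2 difference between HF-DR and HF-AL (horizontal) for all 16502 genes, with the 8 complement genes as lines. C4b, C2 and C1s lie in the lower tail, and C3 at -0.19 lies near the peak.

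Against the mice killed at t=0 the restricted mice gave much the same values, though both comparisons share the HF-DR arrays and are not independent. Again 7 of 8 genes were called lower, where 33.0% of all genes were called lower and 28.8% higher. The 7 genes also had every HF-DR array below every t=0 array, which held for 9.06% of all genes. The difference was -2.62 ± 0.14 for C4b (adjusted p 2.68e-18 by limma), -1.75 ± 0.12 for C2 (1.45e-15) and -1.48 ± 0.09 for C1s (3.62e-17). It was -1.09 ± 0.11 for Cfb, -0.99 ± 0.13 for Cfp, -0.95 ± 0.10 for C1ra and -0.70 ± 0.10 for Serping1, with adjusted p-values from 1.59e-10 to 8.23e-08 by limma. Leaving out HF-DR 8 and 9 gave -2.46 for C4b, -1.60 for C2, -1.35 for C1s, -0.94 for Cfb, -0.89 for Cfp, -0.79 for C1ra and -0.59 for Serping1, all 7 still called. C3 gave -0.28 ± 0.15, with an adjusted p of 0.0978, and -0.06 ± 0.10 with an adjusted p of 0.602 without HF-DR 8 and 9. The second C3 probe gave 0.21 ± 0.15, with an adjusted p of 0.237, and 0.39 ± 0.13 with an adjusted p of 0.00878 without HF-DR 8 and 9.

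Between mice fed without limit for 12 weeks and mice killed at t=0, none of the 8 genes was called, where 0.697% of all genes were. With limma, none of the 8 had an unadjusted p under 0.05 either. The differences lay between -0.10 (C1s) and 0.04 (Cfb). Their 95% intervals limit a change over these weeks to between -0.27 and 0.08 for C1s and between -0.33 and 0.23 for C4b.

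Arrays came on 21 slides, which the array barcodes in the files give. On the 3 slides that held both HF-DR and HF-AL animals, the C4b difference ran from -2.56 to -2.07. That of Serping1 ran from -0.81 to -0.50. In the 7 called genes every HF-DR array lay below every HF-AL and every t=0 array. Signs within slides were thus fixed in advance for these genes and are no check on the slides. For C3 the difference was below 0 on 2 of 3 slides, from -0.24 to 0.41. On the 6 slides that held HF-DR and t=0 animals, C3 was below 0 on 5 of 6.

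The sequences around the start of 3 genes are shown to set C1ra and C1s, which fell, beside C3, which was not called. Each window runs from 250 bases before to 50 after the RefSeq start on GRCm38.p6, 5′ to 3′ on the gene's strand, and the windows of C1ra (chr6:124512371-124512670, plus strand), C1s (chr6:124542272-124542571, minus strand) and C3 (chr17:57228087-57228386, minus strand) follow. Capitals mark a match to a motif that was searched on both strands. The motifs were TATAAA (the TATA box), TTCNNNGAA (the STAT site called GAS), GAAANNGAA (part of the interferon response element), TTGCGNAA (a core of the C/EBP site) and the NF-kB consensus.
C1ra: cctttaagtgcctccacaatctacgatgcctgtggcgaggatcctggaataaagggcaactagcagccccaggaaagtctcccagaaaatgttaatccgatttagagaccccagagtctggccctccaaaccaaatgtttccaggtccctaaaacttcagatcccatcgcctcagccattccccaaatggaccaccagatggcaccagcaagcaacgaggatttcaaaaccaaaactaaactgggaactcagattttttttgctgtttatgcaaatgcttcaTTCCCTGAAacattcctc
C1s: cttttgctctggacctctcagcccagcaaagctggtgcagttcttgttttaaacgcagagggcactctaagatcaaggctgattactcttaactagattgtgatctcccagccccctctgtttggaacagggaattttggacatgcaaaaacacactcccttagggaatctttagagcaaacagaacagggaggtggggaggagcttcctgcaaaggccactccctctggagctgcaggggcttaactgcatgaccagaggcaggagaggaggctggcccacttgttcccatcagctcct
C3: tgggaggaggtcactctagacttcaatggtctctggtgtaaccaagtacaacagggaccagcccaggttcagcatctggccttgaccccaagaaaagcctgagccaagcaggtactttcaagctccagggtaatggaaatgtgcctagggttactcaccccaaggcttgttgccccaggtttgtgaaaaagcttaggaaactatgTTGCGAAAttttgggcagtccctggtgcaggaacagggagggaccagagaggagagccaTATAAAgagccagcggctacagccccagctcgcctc
Windows were given for 4 of the 8 genes, C1ra, C1s (with 2 starts), C3 and Cfp. The C1ra window held 1 match to the GAS motif, TTCCCTGAA, which starts 32 bases after the RefSeq start, and 8.30% of 32851 such windows held at least 1. The C3 window held the C/EBP core, TTGCGAAA, which starts at -45 and which 0.798% of windows held, and TATAAA, which starts at 14 and which 13.6% held. The C1s and Cfp windows held no match to the 5 motifs. GAAANNGAA and the NF-kB consensus, in 8.56% and 4.51% of all windows, matched none of the windows of these genes. A match describes letters only.

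Of the factors that such motifs are named for and other regulators, 15 genes of a list passed the filter. Between HF-DR and HF-AL 3 were called higher and 8 lower, where 28.8% of all genes were called higher and 35.9% lower. The C/EBP factors went both ways, with Cebpd at -1.19 ± 0.15 and Cebpb at 0.44 ± 0.14 (adjusted p 0.00598 by limma).

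The rest of the pathway was followed in a list of 53 other complement genes, of which 34 passed the filter. Between HF-DR and HF-AL 5 rose, 21 fell and 8 did not pass the test, with a median of -0.40, and between HF-DR and t=0 the counts were 5, 22 and 7, with a median of -0.45. Over all genes 28.8% were called higher and 35.9% lower against HF-AL, and 28.8% and 33.0% against t=0, and the counts by role below are to be read against these shares. Leaving out HF-DR 8 and 9 gave counts of 5 higher and 21 lower in both comparisons, with Cd59b lost and Clu gained against HF-AL, and Fcna lost against t=0 (-0.36 ± 0.17, adjusted p 0.0607). Between HF-AL and t=0 none was called by limma.

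Of 11 genes that recognise targets or start the cascade, 2 rose and 8 fell. The chains of C1q, which binds antibody and dying cells, fell, with C1qc at -0.71 ± 0.10, C1qa at -0.57 ± 0.11 and C1qb at -0.49 ± 0.12. Masp1, a protease of the lectin pathway, moved the other way. It ranged from -0.63 to 0.29 in t=0 (median -0.23), from -1.18 to 0.05 in HF-AL (median -0.55) and from 0.70 to 1.70 in HF-DR (median 1.34). Every HF-DR animal was above every other animal. A lack of overlap with HF-AL, in either direction, held for 2387 of all 16502 genes, 1352 of them with HF-DR below. The Masp1 difference from HF-AL was 1.90 ± 0.13, 3.73-fold higher, with an adjusted p of 1.86e-15 by limma. Without HF-DR 8 and 9 Masp1 gave 1.98 ± 0.13. Its partner protease Masp2 fell by 0.41 (SE 0.06). C1rl, a C1r-like protease gene, rose by 0.51 (SE 0.06), while C1rb, a close copy of C1ra, gave -0.32 ± 0.09 and C1s2, a close copy of C1s, gave -0.35 ± 0.04.

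Of 3 genes of the membrane attack complex, which forms the pore, 2 fell and 1 rose. C6 gave -1.10 ± 0.11, 2.15-fold lower, and C7 gave -1.06 ± 0.31, but C7 spanned -1.78 to 1.77 within HF-AL alone and was not called against t=0 (-0.47 ± 0.31). C8g, the gene of the gamma chain of C8, ranged from -0.31 to 0.01 in t=0 (median -0.18), from -0.43 to -0.05 in HF-AL (median -0.26) and from 0.70 to 1.26 in HF-DR (median 0.92). All HF-DR animals were above all others, which is to be read against the count over all genes given with Masp1. The difference was 1.21 ± 0.06, 2.32-fold higher, with an adjusted p of 1.11e-18 by limma, and 1.27 ± 0.06 without HF-DR 8 and 9. The genes of the C8 alpha and beta chains, C8a and C8b, did not pass the filter.

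Factor D, the protease that cleaves factor B and is encoded by Cfd, was not called. It ranged from -0.40 to 1.18 in t=0 (median 0.14), from -0.05 to 1.03 in HF-AL (median 0.41) and from -0.58 to 0.89 in HF-DR (median 0.48). The 3 ranges overlapped widely, and the difference between HF-DR and HF-AL was -0.08 ± 0.17, with an adjusted p of 0.692. It was 0.10 ± 0.16, with an adjusted p of 0.592, without HF-DR 8 and 9.

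Of the soluble regulators, Cfhr2 fell by 0.48 (SE 0.11). Clu and Vtn, which bind the forming pore, gave -0.40 ± 0.18 and -0.09 ± 0.10. Without HF-DR 8 and 9 Clu was called (-0.55 ± 0.17, adjusted p 0.00502) and Vtn turned to 0.04 (adjusted p 0.646). Of 5 membrane regulators 3 fell, with Cd59a, which blocks the pore, at -0.79 ± 0.11, Cd55, which breaks up the C3-cleaving enzymes, at -0.33 ± 0.08, and Cd59b at -0.24 ± 0.09. The call of Cd59b was lost without HF-DR 8 and 9 (-0.14 ± 0.07, adjusted p 0.0914 by limma), and it was not called against t=0 (-0.18 ± 0.09, adjusted p 0.0642).

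Of 10 receptors and binding proteins 6 fell and 2 rose. The integrin chains of the C3-fragment receptors fell, Itgax by 0.70 (SE 0.09), Itgam by 0.54 (SE 0.09) and Itgb2 by 0.43 (SE 0.09). The receptor genes for C3a and C5a differed in size, with C3ar1 at -0.26 ± 0.06, C5ar2 at -0.42 ± 0.09 and C5ar1 at -0.07 ± 0.05, the last not called. Vsig4, a macrophage receptor for C3 fragments, rose by 0.25 (SE 0.09).

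**Figure D4:**
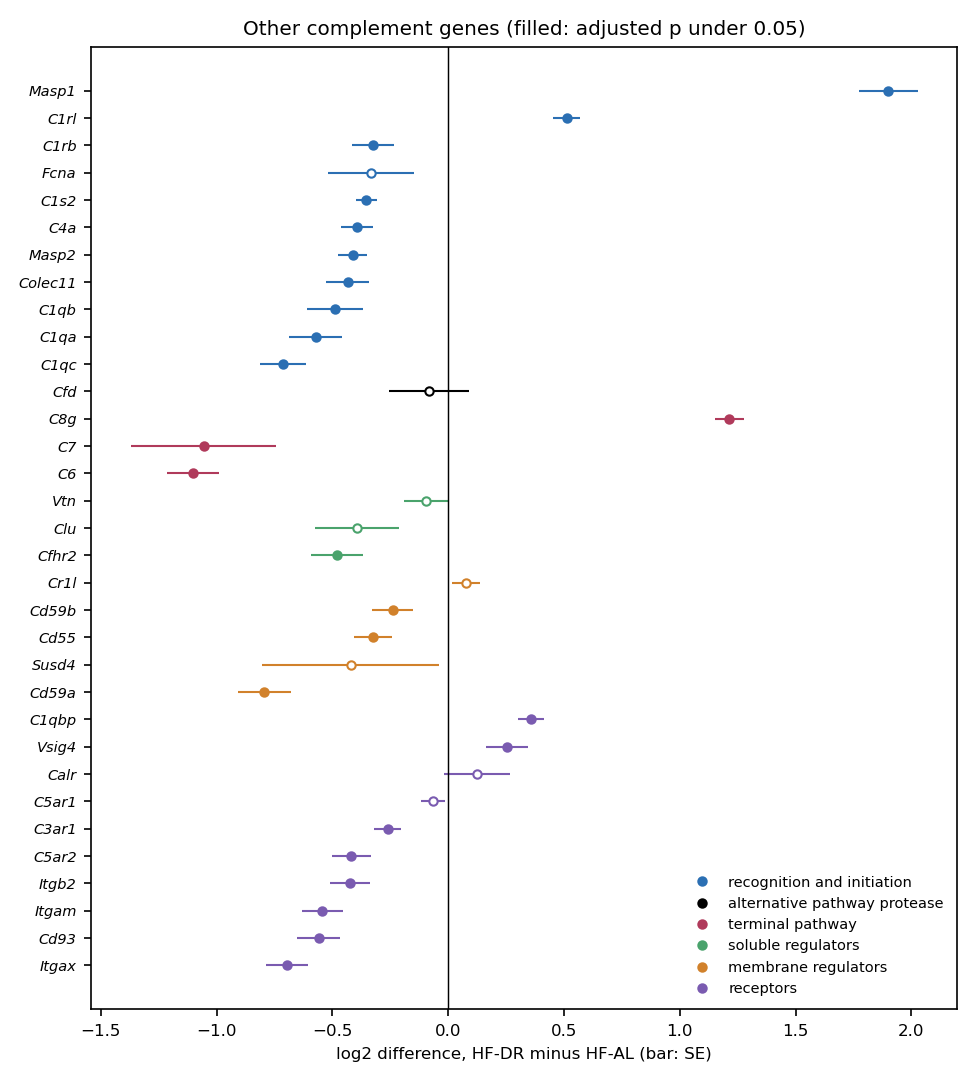
Log2 difference between HF-DR and HF-AL (horizontal axis) of 33 of the 34 other complement genes that passed the filter, coloured by role, with bars for the SE. Filled points were called at an adjusted p under 0.05, with Masp1 at 1.90 highest and C6 at -1.10 lowest.

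Markers of several cell types were called changed between the same groups. Between HF-DR and HF-AL 35.9% of all genes were called lower and 28.8% higher, and the counts here are to be read against these shares. Of 14 macrophage markers 12 fell between HF-DR and HF-AL, and their mean per array ran from -0.21 to 0.56 in t=0, from -0.23 to 0.25 in HF-AL and from -1.31 to -0.29 in HF-DR. Of 11 fibroblast and progenitor markers 9 fell, with means from 0.09 to 0.33 in HF-AL and from -1.26 to -0.63 in HF-DR. Of 9 adipocyte markers 6 fell, and all 9 passed the filter, so the labelled tissue shows its defining genes. The macrophage list holds C1qa, C1qb, C1qc and Itgax, and the adipocyte list holds Cfd, all given above as complement genes. The counts of these 2 lists are therefore not independent of the complement counts. Of 7 hepatocyte markers 5 were not on the array or did not pass the filter. Of the 2 tested, Alb rose by 0.55 (SE 0.12) and Ahsg was not called (-0.04 ± 0.10). Of 8 mesothelial markers 5 fell, and of 7 endothelial markers 3 fell and 1 rose. Of 4 neutrophil markers that passed the filter 2 rose, S100a8 by 0.80 (SE 0.10) and S100a9 by 2.25 (SE 0.18), and none fell. Of 4 B cell markers 3 rose and 1 fell, and of 7 T and NK cell markers 1 rose. Without HF-DR 8 and 9 the counts of lower markers were 12 for macrophages and 10 for fibroblasts, while adipocyte markers went to 5 lower and 2 higher, and their median from -0.54 to -0.33. The part of cell numbers in the differences of the complement genes was not tested.

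Within groups, 5 pairs of genes were compared over animals, 15 relations in all, with permutation tests of 100000 resamples, two-sided. C1ra with C1s, C1ra with Serping1 and C3 with Cfb were chosen because their products act on each other or together. C2 with Cfb and C3 with C4b were chosen as related genes with alike proteins. In HF-DR all 5 pairs were correlated over 12 animals, with Pearson's r from 0.82 (C1ra with Serping1) to 0.94 (C3 with Cfb) and Benjamini-Hochberg adjusted p-values from 0.00515 to 0.0244. Spearman's rho was 0.79 for C1ra with C1s, 0.68 for C1ra with Serping1, 0.73 for C2 with Cfb, 0.76 for C3 with Cfb and 0.66 for C3 with C4b, with adjusted p-values from 0.0415 to 0.0661. HF-DR 8 and 9 formed a cluster of their own in each pair, and without them no relation passed the correction. Over the other 10 animals r was 0.72 for C1ra with C1s (adjusted p 0.119), 0.67 for C3 with Cfb (0.119), 0.59 for C2 with Cfb (0.186), 0.50 for C3 with C4b (0.234) and 0.27 for C1ra with Serping1 (0.556).

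In t=0 and HF-AL no pair passed the correction. C1ra with C1s gave r of 0.48 and rho of 0.44 in t=0 and r of 0.62 and rho of 0.49 in HF-AL, with permutation p-values for r of 0.110 and 0.0318 and adjusted p-values of 0.165 and 0.0681. Without the 2 animals farthest from the median of C1ra, r was 0.67 and 0.53. C3 with C4b gave r of 0.53 in t=0 and -0.64 in HF-AL, and 0.05 and -0.35 without the 2 animals farthest from the median of C3, so both values rest on those animals. C2 with Cfb gave 0.05 in t=0 and -0.34 in HF-AL.

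**Figure D5:**
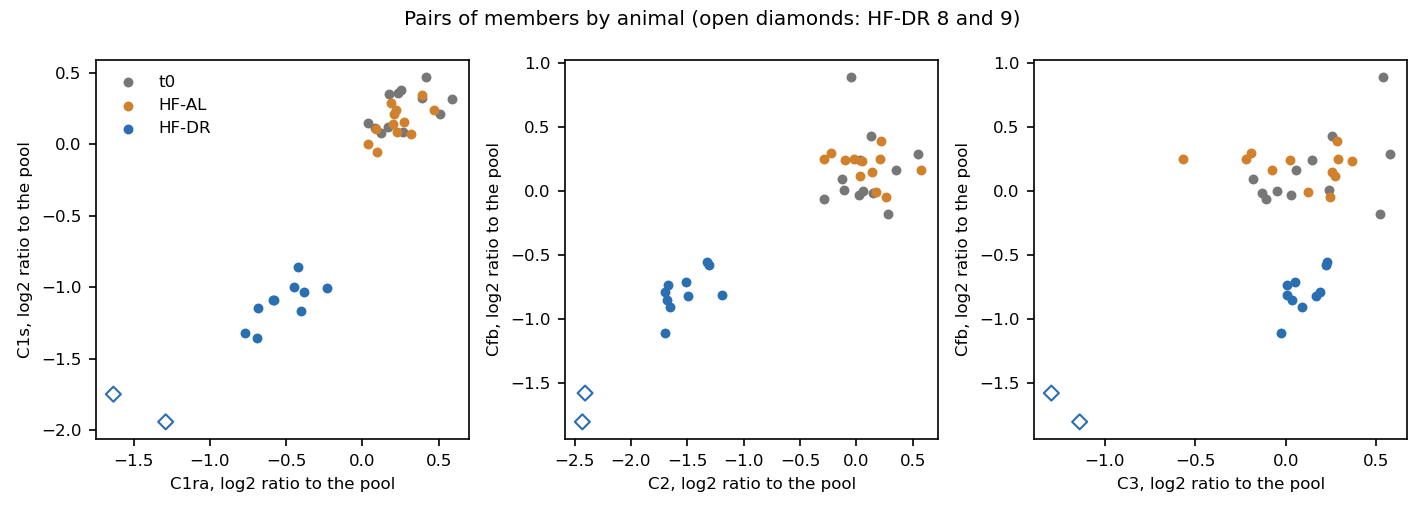
Log2 ratios to the pool of 3 pairs of genes, 1 point per animal, coloured by group, with HF-DR 8 and 9 as open diamonds. These 2 animals lie at the low end of each panel, and the other 10 HF-DR animals form a cloud of their own.

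The genes that varied most like each complement gene over the arrays, after the group means were subtracted, are given as a description. The arrays share slides and hybridisation quality, and HF-DR 8 and 9 weigh on these values. The genes named were the closest over all arrays. Without HF-DR 8 and 9 none of those named for C2, C3 and C1ra stayed among the closest 3. Btg1 (r = 0.77) was then closest to C2, AI661453 (0.78) to C3 and Tlr4 (0.70) to C1ra. For Cfp the closest were Arhgdib (r = 0.90 over 32 arrays, 0.85 without HF-DR 8 and 9), BC028528 (0.89 and 0.86) and Nrros (0.87 and 0.81). For Serping1 they were Loxl1 (0.85 over 36 arrays and 0.79 without HF-DR 8 and 9), P3h3 (0.80 and 0.83) and Selenop (0.79 and 0.62). For C4b they included Lyl1 (0.84 and 0.73) and Fcgr2b (0.83 and 0.72), and for Cfb they were Fcgr2b (0.86 and 0.72), Stab1 (0.85 and 0.69) and Arhgap15 (0.85 and 0.72). Over all arrays Fcgr2b was thus among the closest 3 of both, and without HF-DR 8 and 9 among those of Cfb only.

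For C1s the closest were Abcb4 (0.88 and 0.66), Cd34 (0.87 and 0.77) and Cers4 (0.86 and 0.69). For C1ra they were Anpep (0.88 and 0.61), Lgi2 (0.86 and 0.52) and Il16 (0.86 and 0.65). For C2 they were Arsa (0.82 and 0.62), Gprc5a (0.82 and 0.67) and Gpr137b (0.82 and 0.62). For C3 they were St3gal1 (0.88 and 0.66), Abcc1 (0.84 and 0.53) and C1rb (0.84 and 0.62), the last a complement gene itself.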

How the data were processed

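The members, gene lists and tests were chosen with earlier results of these data known. Per the labels, each animal's RNA was labelled with Cy5 and set against a Cy3 pool of all samples, in a single dye orientation, so a probe's dye effect cancels between groups. The scanner output that the authors deposited was, per the file headers, made with version 9.5.3.1 of Agilent Feature Extraction. The intensity values used are, per the file headers, linear means of a spot's pixels and medians of its local background, not normalised by the authors. They also deposited a matrix of log2 values for 22510 probes, which correlate with log2 Cy5 (r 0.980 or higher) far more than with the log2 ratio (r at most 0.275). It was an alternative here, and the sources used do not give how it was made. It holds 10 of the 11 probes, and the C3 probe used in the main result is not among them.

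Background was corrected with normexp in limma 3.58.1 (R 4.3.3), offset 50, after 84 spots with a net signal under -50 on 12 arrays were set missing, an exception made with earlier results known. Loess (4 iterations, weight 0 for controls) then normalised the ratios of each array. Spots marked non-uniform or population outliers were left out and replicate spots averaged. The filter kept 24706 of 41174 probes, those well above background in Cy5 on 9 or more arrays in any group, and the brightest probe stood for a gene. Of the 41174 probes, 24375 were named by accession through RefSeq, 6301 by current symbol and 2426 by synonym, and the rest kept the name in the file. The file's C1r was taken as C1ra. Groups were compared in a limma fit over all 36 arrays. The offset shrinks the differences of dim probes. Probe coordinates are on mm8 per the file headers, and promoter windows are from RefSeq on GRCm38.p6. The fit was tested on simulated data. Named genes were the 8 members, other complement genes by role, at most 2 factors, and the 3 most alike genes of each member. Not all of these are reported here.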

Additional observations from a re-analysis of the deposited data

How the results depend on the processing

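Under 14 alternatives, 12 of them planned, 7 of the 8 genes were called lower between HF-DR and HF-AL and 0 between HF-AL and t=0. Between HF-DR and t=0 the count was 7 but for 8 with the replicate block, where C3 kept its -0.28 with an adjusted p of 0.0315 by limma. Calls in the HF-DR comparisons were common over all genes too. In either direction they numbered 8486 to 11532 against HF-AL and 8297 to 11505 against t=0 over the settings. The genes tested numbered 12131 with all arrays above background and 27598 with no filter. Whether the replicate numbers pair the animals cannot be told from the values, and the main fit has no term for them. Same-numbered deviations correlated with a median of 0.21 in HF-DR against HF-AL, where 9 of 12 pairs were over 0.1. The medians were 0.01 in HF-AL against t=0 and -0.07 in HF-DR against t=0, with 2 and 0 of 12 pairs over 0.1. The 7 genes kept their direction, with C4b between -2.58 and -2.07 and Serping1 between -0.77 and -0.56 against HF-AL. C3 turned to 0.37 against HF-AL and 0.21 against t=0 with the series matrix, which holds only its second probe, to 0.081 with the mean of its probes, and to 0.030 without HF-DR 8 and 9. Between HF-AL and t=0 uncalled differences near 0 turned sign. C2 gave -0.0059 (plain normexp), -0.015 (processed signals), -0.064 (matrix), -0.0095 (mean of probes) and -0.056 (slide block), and Cfb gave -0.033 (matrix). Serping1 gave -0.051 (matrix), -8.1e-04 (scaling) and -0.043 (without the 7 arrays listed for male tract transcripts). With array weights C3 gave 0.038 and C1ra 0.0058. Other complement genes called there numbered 1 with processed signals, with array weights and without HF-DR 8 and 9, and 2 with scaling, against 0. All genes called there numbered 213 with processed signals, 71 with no filter, 73 with all arrays above background, 513 with scaling, 75 with quantile levels, 197 without the 7 arrays, 765 with array weights and 429 without HF-DR 8 and 9, against 115. Of the pairs, 5 relations passed over all animals, 6 with processed signals and with the matrix, and 0 without HF-DR 8 and 9. With the matrix r turned to -0.088 for C2 with Cfb in t=0, and in HF-AL to 0.089 for C1ra with Serping1, 0.25 for C2 with Cfb and 0.15 for C3 with Cfb. The cause of the other changes was not tested. Leaving out single animals was not run, with 12 in a group. Signal over background limits the fold of dim probes, and all 11 probes were well above background in Cy5. A limit for bright probes was not tested.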

Other observations

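A probe for the transcript AA733629, which the files place at chr17:56889377-56889436 in the direction opposite to C3, overlaps the end of the C3 probe used here by position. It was well above background on all 12 t=0 arrays, all 12 HF-AL arrays and 11 of 12 HF-DR arrays. Its difference between HF-DR and HF-AL was 0.09 ± 0.08 (adjusted p 0.366 by limma over 24706 probes), and 0.18 ± 0.07 (0.0285) without HF-DR 8 and 9. This probe was chosen after its values were seen.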
